A study of Anser sp. with 4 samples.

Results

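A set of 49 transcript identifiers had a higher signal in goose skin on the arrays of 5 and 10 days after molt than on both earlier arrays, before molt and 1.5 days. They were chosen from the 20408 identifiers with at least 1 probe well above background on at least 1 array, out of 31550 on the array. For each identifier the log2 processed signal minus the array's 75th percentile was averaged over its detected probes, and values under -3.7 were set to -3.7. An identifier was a member when its gap, the lower of the values at 5 and 10 days minus the higher of those before molt and at 1.5 days, was at least 0.9, and when 5 and 10 days differed by under 1. The gap and the levels below therefore describe the choice and are not a test of it.

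The study followed feather regeneration in Wanxi-White geese. RNA of skin cut from the belly of females was read on 4 one-colour arrays of chicken probes. One array stands for each of 4 groups, which are skin from before molt, 1.5 days, 5 days and 10 days after it. The labels name 6 birds kept in a pen of their own once the flock neared molt, after transfer to pens at 10 weeks of age. They give no treatment beyond the molt, and neither the age at sampling nor whether the birds' RNA was pooled is given in the sources used here. Since each time has a single array, values carry no replicate error, no test between times was possible, and a difference between times also holds any difference between the samples.

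A feather grows from a follicle in the skin, where a dermal papilla signals to the epidermis above it. When the old feather is lost at molt, epidermal cells of the follicle multiply, move upward and harden into the new shaft and barbs, while a vascular pulp feeds the growing feather. Skin taken during regrowth can thus hold other proportions of cells than resting skin. In such tissue RNA, more cells of a type and more RNA per cell cannot be told apart. The files pair 0 identifiers with a gene symbol, so the members are described by their levels, probes and accession numbers, and markers of skin, blood, muscle or immune cells could not be read.

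The 49 members stood higher at both later times from very different starting levels. The median member stood 2.73-fold above its level before molt at 5 days and 2.75-fold above it at 10 days. Against 1.5 days the median member was 2.69-fold higher at 5 days and 2.91-fold higher at 10 days. At 5 days 47 of the 49 were at least 2-fold above before molt, where 8% of all tested identifiers were, and at 10 days 44 were, where 4.15% of all were. Against 1.5 days 44 were at least 2-fold higher at 5 days (2.76% of all) and 45 at 10 days (8.6% of all). These 4 comparisons share their arrays and chose the members, and nothing is read from the counts.

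Most of the set is better described as raised than as switched on. Of the 49 members, 41 were well above background on all 4 arrays, which is 83.7% of them beside 77.8% of all tested identifiers. In this the members were close to all tested identifiers, so it does not set them apart. Of the members 2 were below that mark on both arrays of before molt and 1.5 days. Another 3 were below it before molt alone and 3 at 1.5 days alone. The pair that was dim on both early arrays stood at least 2.15-fold and at least 2.21-fold higher later, since their early values were set to the floor. In all, 10 members had at least 1 value at the floor. Before molt 19 of the 49 lay within 1 of the floor, beside 25.1% of all tested identifiers.

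By level the members fell into 3 groups, shown in the plot of levels on each array. Above the array's 75th percentile throughout were 16 members, below it throughout 24, and 9 lay on both sides of it. Members made up 0.259% of the 6168 tested identifiers of the first level, 0.203% of the 11815 of the second and 0.371% of the 2425 of the third, against 0.24% of all identifiers tested. The set was thus drawn from all levels of signal. By mean signal 2 members were among the 1000 brightest identifiers, which is 4.08% of the members beside 4.90% of all tested identifiers. The best rank of a member was 843.

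**Figure D1:**
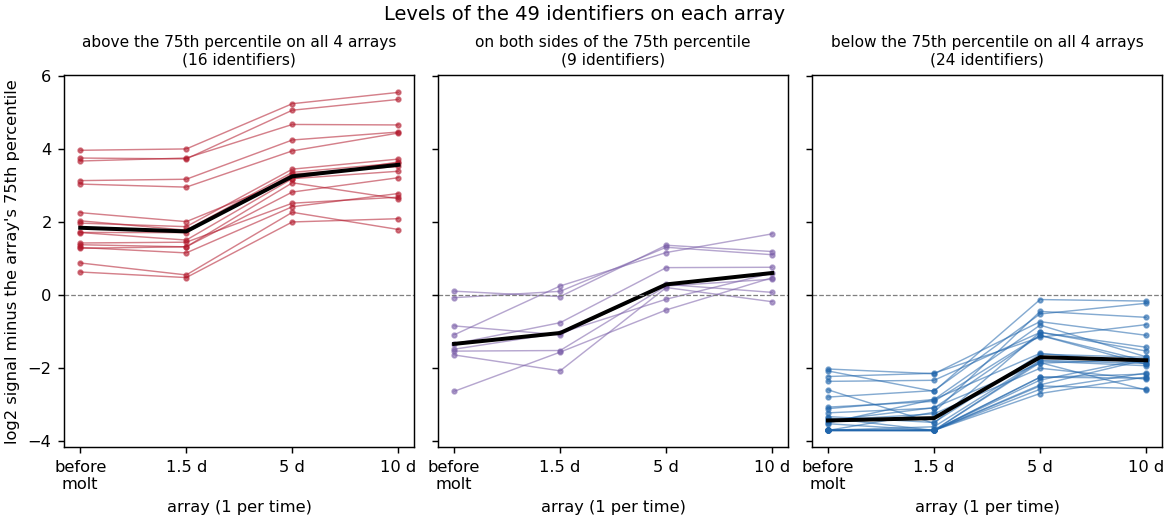
Log2 signal minus the array's 75th percentile (vertical axis) of the 49 members on the arrays of before molt, 1.5, 5 and 10 days (horizontal axis). Thin lines with points are single identifiers, the black line is the median of the group, and the dashed line is the 75th percentile. In all 3 groups the median on this scale is nearly flat from before molt to 1.5 days or rises little, and the step lies between 1.5 and 5 days. Scaled on control RNAs spiked into the samples, the array of 1.5 days would lie 0.92 lower against before molt.

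The 16 bright members had like profiles under this scaling. Their median level was 1.85 before molt and 1.75 on the array of 1.5 days, and then 3.26 at 5 days and 3.58 at 10 days, on the log2 scale against the 75th percentile. Between before molt and 1.5 days none of the 16 moved by as much as 0.5, the differences running from -0.33 to 0.08. The share of all tested identifiers of that level that moved so little is not given here, so this does not set the members apart. This flatness rests on the scaling, since with arrays scaled on these spike-ins all 16 were lower at 1.5 days, with differences of -1.25 to -0.84, where the median of all tested identifiers of that level was -0.83. From 5 to 10 days 13 of the 16 went on upward, with a median difference of 0.24 and a range of -0.47 to 0.49, and 14 of the 16 did when scaled on spike-ins. Among all 6168 tested identifiers of that level 39.5% were higher at 10 than at 5 days, and their median difference was -0.11. Scaled on spike-ins, 3399 of the 6168 were higher at 10 days, and the median was 0.05.

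Within that group the bright member with the largest gap read 1.72 on both early arrays, 3.32 at 5 days and 3.53 at 10 days. Its gap is a 3.03-fold step. The next read 1.29, 1.33, 2.83 and 3.22 in the same order of times. The brightest member by its mean over probes read 3.98, 4.01, 5.25 and 5.56, with a gap of 1.24. A member of nearly equal brightness read 3.76, 3.74, 5.07 and 5.37, with a gap of 1.31. Relative to the 75th percentile these 4 profiles were flat over the early pair of arrays, which they were not when scaled on spike-ins, stepped up by 5 days and rose further, by 0.21 to 0.39, to 10 days. The exceptions to the further rise were 3 bright members, the sharpest of which read 2.28 at 5 days and 1.80 at 10 days.

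The 9 members that crossed the 75th percentile had a median of -1.33 before molt and -1.03 on the array of 1.5 days, and then 0.30 at 5 days and 0.61 at 10 days. The largest gap among them was 1.77, in a member that read -1.53, -1.51, 0.26 and 0.44. Relative to the 75th percentile 6 of the 9 were higher at 1.5 days than before molt. So were 22 of all 49 members and 47.6% of all tested identifiers of any level. Scaled on spike-ins 2 of the 9 were, beside 422 of all 2425 tested identifiers of that level. One member went from -1.08 before molt to 0.26 at 1.5 days, 1.17 at 5 days and 1.69 at 10 days, which is a climb over all 4 arrays. Another went from -2.63 to -1.55, -0.40 and 0.49. These 2 were the only members at least 2-fold higher at 1.5 days than before molt, where 7.66% of all tested identifiers were, and 0 members were at least 2-fold lower, where 12.2% of all were. Both early values were part of the choice. Before molt 19 members, and 25.1% of all tested identifiers, lay within 1 of the floor and could not fall 2-fold. Nothing is therefore read from the counts of 2-fold changes. Scaled on spike-ins, 0 members were 2-fold higher and 14 were 2-fold lower at 1.5 days. Of all 20408 tested identifiers 220 were 2-fold higher and 8108 were 2-fold lower on that scale. The median difference was -0.84 over the members and -0.80 over all tested.

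The 24 dim members held the largest gaps and the least certain ones. Their median was -3.43 before molt and -3.36 on the array of 1.5 days, and then -1.69 at 5 days and -1.78 at 10 days. Of the 24, 16 were lower at 10 days than at 5 days and 8 were higher, with a median difference of -0.09 and a range of -0.87 to 0.69. Scaling on spike-ins turned this balance, with 10 lower, 14 higher and a median of 0.07. On that scale 6090 of all 11815 tested identifiers of that level were higher and 4133 were lower, with a median of 0.03. Among all 11815 tested identifiers of that level, relative to the 75th percentile, 42.7% were higher at 10 days, 44.0% were lower and 13.3% were equal, both values being at the floor. The difference between the 2 level groups was not tested.

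The largest gap of all was 2.60, a 6.07-fold step, in a dim member read by 1 probe. It was at the floor of -3.7 before molt, where it was not well above background, at -3.20 at 1.5 days, -0.44 at 5 days and -0.60 at 10 days. Among members well above background on all 4 arrays the largest gaps belonged to NM_205466 and AM773270. NM_205466 had processed intensities of 18.1 before molt and 22.0 on the array of 1.5 days, and then 73.7 at 5 days and 94.2 at 10 days. On the log2 scale against the 75th percentile these are -2.79, -2.61, -0.51 and -0.22, a gap of 2.10 or 4.29-fold. A second probe of this identifier was not well above background on any array and was not used, and with it averaged in the gap was 0.68.

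AM773270 had intensities of 29.7, 21.7, 96.9 and 98.2 in the same order, or -2.07, -2.63, -0.11 and -0.16 on the log2 scale. Its gap was 1.91, a 3.77-fold step. This identifier was level at 5 and 10 days, and 1.5 days was its lowest point. Under normexp background correction the gaps of these 3 dim members were 1.12, 1.06 for NM_205466 and 0.95 for AM773270, all still past 0.9.

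How firmly a single member's step can be read depends on its probes. These are chicken probes, and how well each matches goose RNA is not known from the files. Of the 49 members, 46 were read by 1 probe in use. The remaining 3 were all bright. Probes of the member with 3 had gaps of 1.11, 0.93 and 1.43, each past 0.9 on its own. Those of the second had gaps of 1.43 and 0.80, and those of the third 0.79 and 0.99. The third is a case of probes that differ widely in brightness, at 5.95 and 1.42 before molt, while both stepped up by a like amount. In the plot of separate probes all 7 lines rise between 1.5 and 5 days. The means of these same probes chose the 3 members, so the rise gives no separate support. Conversely, of 4603 tested identifiers with 2 or more probes in use, 20 had at least 1 probe that met the rule, and 3 of these were members on the mean of their probes. Of the members, 6.12% had 2 or more probes in use, against 22.6% of tested identifiers. A further 6 members had other probes that were not well above background on any array. With such probes averaged in, these 6 no longer met the rule. On that setting 43 of the 49 were still members and 45 had a gap above 0.

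**Figure D2:**
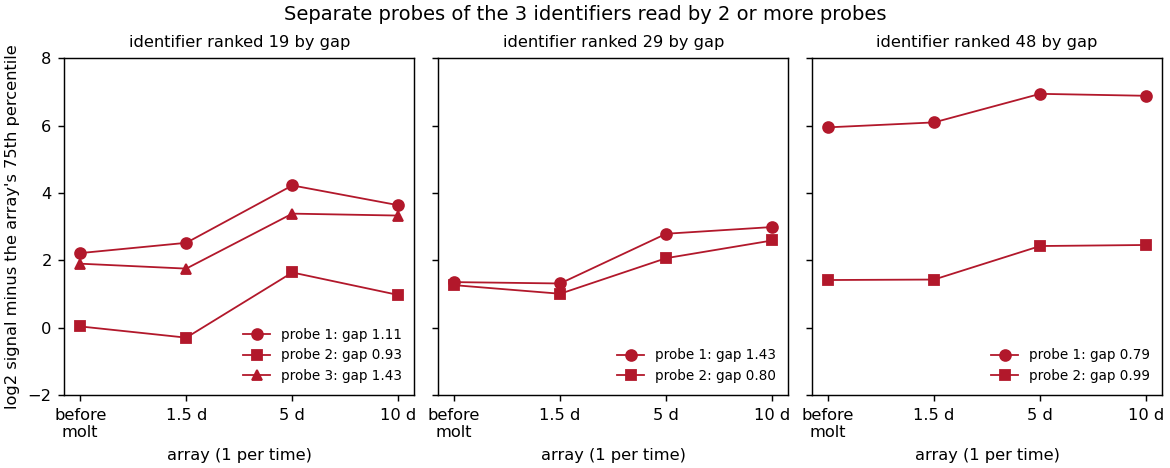
Log2 signal minus the array's 75th percentile (vertical axis) on the 4 arrays (horizontal axis) for each probe of the 3 members read by 2 or more probes, 1 line per probe, with each probe's gap. The probes of an identifier start at different levels, and all 7 are higher on both later arrays than on both earlier ones. The means of these same probes chose the 3 members.

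Errors of spots and probes were set beside the gaps. The error that Feature Extraction gives for each spot was taken from that program and not measured on repeated arrays. Carried to the gap, it had a median of 0.22 over the members and ran from 0.12 to 0.65. Among bright members read by 1 probe it was near 0.204 throughout, so it hardly tells them apart. The gap was a median of 4.89 times this error, at least 4.46 times it for all 16 bright members, and under 3 times it for 4 dim members. The ratio in the bright members follows from the choice and is no separate support. Their error was at most 0.204, and the rule asked for a gap of at least 0.9. Between the repeated spots of 25 probes the SD of the gap was 0.14. Between different probes of 1 identifier the SD was larger, 0.44 over identifiers above the 75th percentile and 0.64 over those at or below it. Neither error holds the difference between birds or RNA samples. The plot of gaps with spot errors shows the widest bars among the dim members.

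**Figure D3:**
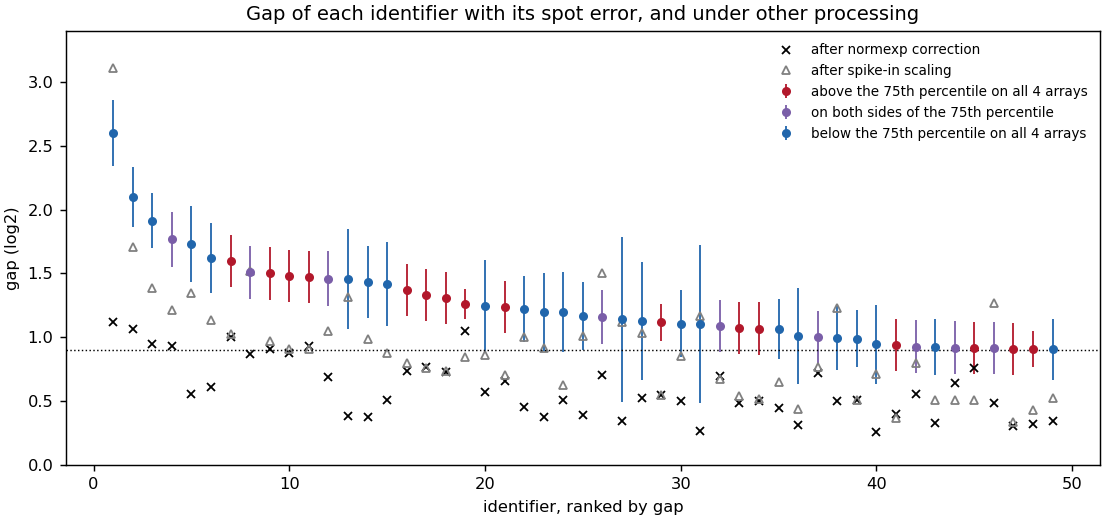
Gap of each member (vertical axis, log2) by rank (horizontal axis), coloured by level group, with bars of plus and minus 1 spot error from Feature Extraction. Crosses give the same member's gap when signals were corrected by normexp and triangles when arrays were scaled on spike-ins, and the dotted line is the threshold of 0.9. Most crosses lie below the threshold. The points of the bright group carry short bars, nearly equal for those read by 1 probe.

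Gaps of this size were rare in either direction. Both later arrays lay above both earlier ones for 2112 identifiers, 10.3% of those tested, and below them for 2560, 12.5%. The members are thus the far end of the smaller of these 2 groups. Turned round, the rule found 21 identifiers lower from 5 days on, 0.103% of those tested. The balance between raised and lowered depended on the processing, since normexp correction gave 8 raised and 17 lowered, a floor of -4.5 gave 62 and 45, and scaling on spike-ins 53 and 15. At a gap of 1.5 there were 9 raised and 5 lowered, and at a gap of 2 there were 2 raised and 0 lowered. The plot of gap sizes shows more lowered than raised identifiers at small gaps and the reverse beyond the threshold. Of the 21 lowered, 3 were above the 75th percentile throughout and 14 below it, and 8 had a value at the floor. Their median gap was 1.16, a 2.23-fold step, close to the 1.17 of the members.

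**Figure D4:**
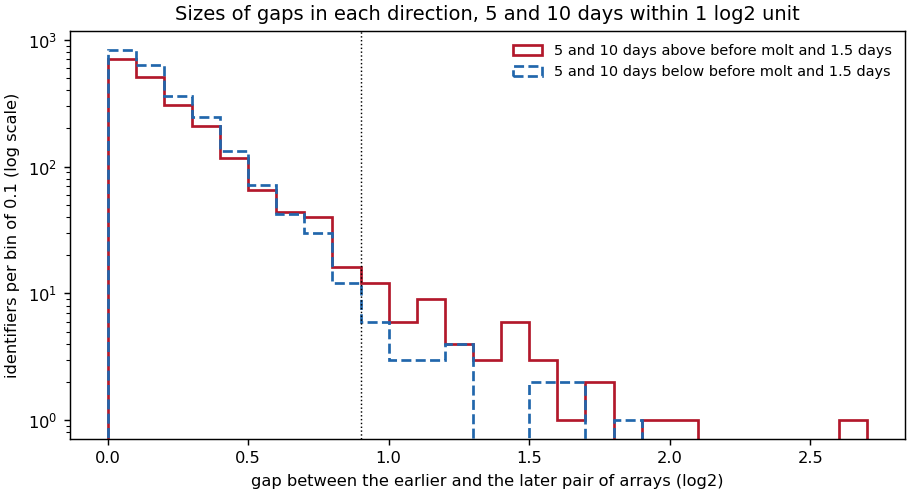
Number of identifiers (vertical axis, log scale) by size of the gap between the earlier and the later pair of arrays (horizontal axis, log2, bins of 0.1), where 5 and 10 days differ by under 1. The solid red line counts identifiers higher at 5 and 10 days and the dashed blue line those lower, and the dotted line is the threshold of 0.9. Right of it stand 49 raised and 21 lowered identifiers.

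No break in the values marks the threshold. The 3 members just inside it had gaps of 0.905, 0.907 and 0.909. The 3 identifiers just outside had 0.893, 0.872 and 0.871. The limit on the difference between 5 and 10 days kept out 1 identifier alone, with a gap of 1.88. It was at the floor on both early arrays, at 0.18 at 5 days and at -1.82 at 10 days.

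The kinds of identifier among the members were close to those of all identifiers tested. Ensembl transcripts made up 19 of the 49 (38.8%, against 42.6% of those tested). RefSeq NM or NR records made up 9 (18.4% against 18.4%) and RefSeq XM or XR records 2 (4.08% against 6.55%). Other accessions of letters and a number made up 19 (38.8% against 32.1%).

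Some members lay close together in accession number. For 11 of the 49, another member had an accession with the same letters and a number within 10. This is 22.4% of the members, and 1.32% of the tested numbered identifiers that are not members had a member so close. They formed 5 runs, 1 of 3 members and 4 of 2. In one run of Ensembl transcripts with adjacent numbers, the members read 2.04 and 3.98 before molt, and their gaps were 1.33 and 1.24. In the run of 3, gaps were 0.92, 1.16 and 1.77. From 5 to 10 days these members changed by -0.47, 0.88 and 0.19 in that order, so their profiles differed. Such records can stand for copies of a gene or for related genes that a probe cannot tell apart, so the number of separate genes among the 49 is not known. Neighbours of members in this sense that were not members themselves numbered 267. Both later arrays lay above both earlier ones for 40 of these, or 14.98%, where 10.3% of all tested identifiers had this order, and their median gap was -0.39, against -0.46 over all tested.

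Blocks of accession numbers were formed after the values were seen. A pair of those with 10 or more tested records held the highest shares of records with the members' direction. Accessions other than Ensembl and RefSeq records were put in blocks that share all but the last 2 digits of the number. Of these blocks, 196 had 10 or more tested records. Smaller blocks were left out, among them a block of 3 records that were all members and another of 3 records with 2 members. Over the 196 blocks, both later arrays lay above both earlier ones for a median of 7.79% of a block's records. The block that holds AM773270 had the highest share, 55% of 20 records, and held 3 members. The second, at 52.9% of 17 records, held 2 members, and the third, at 30.8%, held fewer than that. Their members count in these shares. Without them 8 of 17 records of the first block and 7 of 15 of the second had both later arrays higher, and 0 of either had both lower. Over all tested identifiers that are not members the share was 10.1%. These 17 and 15 records also count in the shares that ranked the 2 blocks highest, so they give no separate support. The mean of 5 and 10 days minus that of before molt and 1.5 days had a median of 0.13 over those 17 and 0.45 over those 15, against -0.03 over all non-members. It ran from -0.41 to 1.98 over the 17 and from -0.11 to 1.16 over the 15. Records of 1 block may share sequence, so they are not independent measurements. What the records encode is not annotated in the files.

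**Figure D5:**
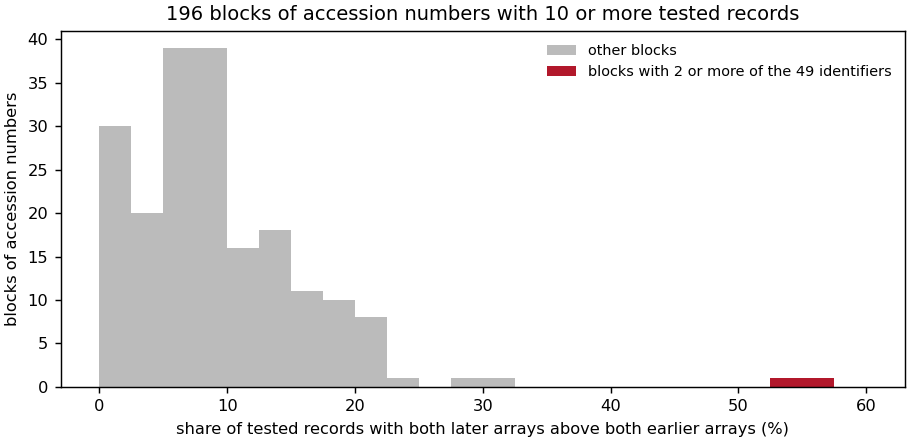
Number of blocks of accession numbers (vertical axis) by the percent of their tested records with both later arrays above both earlier arrays (horizontal axis), for the 196 blocks with 10 or more tested records. Red marks those of the 196 blocks with 2 or more of the 49 members, at 55% and 52.9%, and every other block shown lies at or under 30.8%. Smaller blocks are not shown.

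Spots of members lay in many parts of the array. Their 53 spots in use lay between rows 35 and 510 of 532 and between columns 2 and 84 of 85. Of the 1234 spots that surround them within 2 places each way, 0 had a gap of 0.9 or more, where 0.158% of all non-control spots did. With so low a share nothing is read from this count. The median gap around a member's spot ran from -0.62 to 0. Its median over members was -0.04, where the median gap of all non-control spots was -0.06. No spot of a member was marked as an outlier on any array (0 marked).

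Results rest on how each array is scaled. Relative to the 75th percentile, control RNAs spiked into the samples were brighter on the later arrays than before molt, by 0.92 ± 0.09 (SD over 6 spike-in probes) on the array of 1.5 days, 0.57 ± 0.06 at 5 days and 0.41 ± 0.07 at 10 days on the log2 scale. The dimmest and the brightest spike-in probes were left out of these values. With arrays scaled on the 6 kept, 22 of the 49 were still members, 4 of the 16 bright ones among them. Every member's gap stayed above 0, with a median of 0.86. No gap could have reached 0, so nothing is read from this. The scaling lowers a gap by at most the 0.57 of 5 days, and members start at 0.9 or more. The cause of the shifts between arrays was not tested. Under normexp background correction 8 of the 49 were still members, 4 of them bright and 3 dim, and the median gap was 0.55.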

How the data were processed

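The deposited scanner files hold spot intensity for 43803 non-control spots per array, made with Agilent Feature Extraction 10.7 per the submitters' processing notes and release 10.7.3.1 per the file headers, which place all 4 arrays on 1 slide in 1 scan and annotate the design on the chicken build galGal3. The processed intensity is background-subtracted there and not scaled between arrays. A further deposited table gives log2 values per probe, by steps the sources used here do not state. Quality marks of a spot (other columns of the deposited files) are 0 or 1.

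From these, log2 levels against the 75th percentile, probe means and gaps were computed with Python 3.11.15, numpy 2.4.6 and pandas 2.3.3. Limma 3.58.1 under R 4.3.3 gave the normexp correction (offset 50). The code of the rule was checked on simulated levels with planted steps, which gives no error rate for these arrays. Between 52.4% and 57.5% of spots were well above background, and 0 were saturated. The number of arrays limits the precision. Samples were grouped by the time in the labels. No p-value was computed.

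Members, lists and alternatives were chosen with earlier results of these data known. With no gene names, the 26 gene lists were not matched, and the rule for naming allowed 2 identifiers, those with the largest gaps among members well above background on all arrays.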

Additional observations from a re-analysis of the deposited data

How the results depend on the processing

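Of 13 settings tried, 11 kept the count of members within 1.5 times 49 and 10 kept that of the lowered identifiers within 1.5 times 21. Some settings could hardly move the count of members. No spot of a member was an outlier, and 46 of the 49 had 1 probe in use. Like counts can also hold other identifiers. Of the 17 lowered under normexp correction 3 were among the 21, and of the 15 under spike-in scaling 8 were. Under normexp correction, chosen on median signals after the files proved to hold no mean signals, there were 8 members, fewer than the 17 lowered identifiers, which turned the balance. A gap of 1.2 left 22 raised and 9 lowered identifiers. Lowered identifiers numbered 11 when probes had to be well above background at both 5 and 10 days, and 45 with a floor of -4.5, beside 50 and 62 members. The filter on 5 and 10 days asks for signal where members are high, and it kept all 49. It thus favours raised over lowered identifiers, and nothing is read from its counts here or among the 11 settings above. Counts of members under the other settings were 40 to 56. Normexp changed the signal, the background correction and the offset together, and kept 4 of 16 bright members, 1 of 9 on both sides of the 75th percentile and 3 of 24 dim ones. The cause was not tested.

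Under spike-in scaling the count moved little and the identifiers more. There were 53, of which 22 were among the 49, and this scaling took the median gap of all tested identifiers from -0.46 to -0.69. The 8 found under normexp were all among the 49. So were the 40 found with a floor of -3, and a floor of -4.5 kept all 49. Both floor results follow from the rule, so nothing is read from them. A higher floor cannot widen a gap, and a lower one cannot shrink a member's. Of the 49, 44 were kept under quantile normalization, 44 in the authors' deposited log2 table and 47 under median centring. Over the 11 settings of signal, scaling, filter, floor and source, 6 members were kept by all, and 31 by the 9 that leave out normexp and spike-in scaling. The gaps of the named members stayed above 0 in all 22 recomputed values, between 0.68 and 2.15. Several of these repeat the reported gap, since settings of floor, outliers or detected probes could not change it. Values from the deposited log2 table were close to those of quantile normalization. At 0.68, with no filter on dim probes, NM_205466 fell short of the threshold of 0.9. No paired analysis was possible because each time has 1 array, and for the same reason no array could be left out. Signal over background limits the dim members, 10 of which had a value at the floor.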
